A study of Rattus norvegicus with 36 samples.

Results

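Transcripts for secreted plasma proteins of the hepatocyte were followed in rat liver over 5 doses of hexabromocyclododecane (HBCD), a brominated flame retardant. The set was albumin (Alb), alpha-1 antitrypsin (Serpina1), 3 apolipoproteins (Apoa1, Apob, Apoc3), transferrin (Tf), fetuin-A (Ahsg), prothrombin (F2) and retinol binding protein 4 (Rbp4), and every probe set that the platform annotation lists under 1 of these 9 symbols alone was taken. This gave 10 probe sets for 8 genes, of 31042 probe sets tested and 14217 gene symbols in all. Tf had no probe set of its own. Srprb encodes a subunit of the receptor for the signal recognition particle. The 2 probe sets listed under both Srprb and its neighbour Tf were assigned to neither. Their values are given as Srprb/Tf probe sets 1 and 2.

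Arrays came from male Sprague Dawley rats, 7 weeks old when dosing began, of which no genotype is given. They received 5 daily gavages in corn oil, at 5 ml/kg, and liver RNA was taken from the left lobe 1 day after the last dose. There were 6 groups of 6 arrays. One received the oil alone (vehicle), and the other 5 received HBCD, the lowest dose being 0.06 mg/kg, followed by 0.641 and 6.41 mg/kg and, at the upper end, 64.1 and 641 mg/kg. Values are log2 probe set levels, and differences are dose minus vehicle on that scale. The samples were whole liver lobe, in which less RNA per hepatocyte and fewer hepatocytes cannot be told apart. Replicates are numbered in the labels, but nothing states that each came from its own animal. The p-values therefore reflect how far these samples scatter, a scatter that may be technical.

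Hepatocytes make most of the protein of blood plasma. Their secreted proteins carry a signal peptide, enter the endoplasmic reticulum, pass the Golgi and leave the cell without being stored in granules. Albumin holds the osmotic pressure of plasma and carries fatty acids and drugs, the apolipoproteins package lipids for transport, and the transcription factors HNF1, HNF4 and C/EBP are known to drive many of these genes in liver.

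The probe sets of the set stood at the top of the array scale. Alb probe set 1 (1367555_at) was the highest of all tested probe sets on all 36 arrays, Alb probe set 2 (1367556_s_at) the second and Srprb/Tf probe set 1 (1370228_at) the third. Apoc3 (1370009_at) had the sixth highest mean, 13.977, and Serpina1 (1367647_at) the eighth, 13.896. Ahsg (1368161_a_at) averaged 13.696, Rbp4 (1371762_at) 13.689, Apob probe set 1 (1388190_at) 13.277, Apoa1 (1368335_at) 13.085 and F2 (1368442_at) 13.009. In all, 68 probe sets (0.219% of those tested) had a mean of at least 13, and 9 of the 10 member probe sets were among them. The exception was Apob probe set 2 (1371157_at), at 7.40. Srprb/Tf probe set 2 (1391323_at) was also far below its partner, at 7.91. These places say where a probe set lies on the scale, and they do not compare amounts of RNA between genes.

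Values bunched at this end of the scale. Alb probe set 1 had the same value, 14.532, on 15 of the 36 arrays, 4 of them vehicle, 2 at 0.06, 3 each at 0.641, 6.41 and 64.1 and 0 at 641 mg/kg. Alb probe set 2 had the value 14.307 on 7 arrays. Of all 31042 probe sets these were the 2 (0.00644%) with a shared value on at least 7 arrays, while the other member probe sets outside the Srprb/Tf pair had 36 distinct values. The highest value of an array lay between 14.258 and 14.588, and on 28 arrays it was within 0.02 of the median of 14.532.

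The spread within dose groups shrank with level as well. The median SD of a probe set within groups was 0.156 for means of 4 to 6, 0.105 for 8 to 10, 0.0802 for 12 to 13, 0.0537 for 13 to 13.5, 0.0329 for 13.5 to 14 and 0.0277 from 14 upwards. Rbp4 had an SD of 0.0223, and 0.00966% of the tested probe sets had a smaller one. The SD was 0.0265 for Serpina1, 0.0297 for Apoc3, 0.0320 for Ahsg and 0.0372 for F2, whereas Apoa1 at 0.101 and Apob probe set 1 at 0.0828 kept a wider spread. The hybridization spike-ins, bacterial and phage transcripts added to each array in rising amounts, showed the same narrowing. BioB averaged 8.73 with an SD within groups of 0.115, BioC 10.31 with 0.104, BioD 12.12 with 0.0737 and Cre, the most abundant, 13.61 with 0.0372. Each spike-in was first averaged on an array over its probe sets, 3 for BioB and 2 for each of the others. The SDs of the members and level ranges are of single probe sets. No saturation flags were used here. How far probe saturation, or the normalization that gives the arrays a common set of values, sets the equal values and the small spread was not tested.

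**Figure D1:**
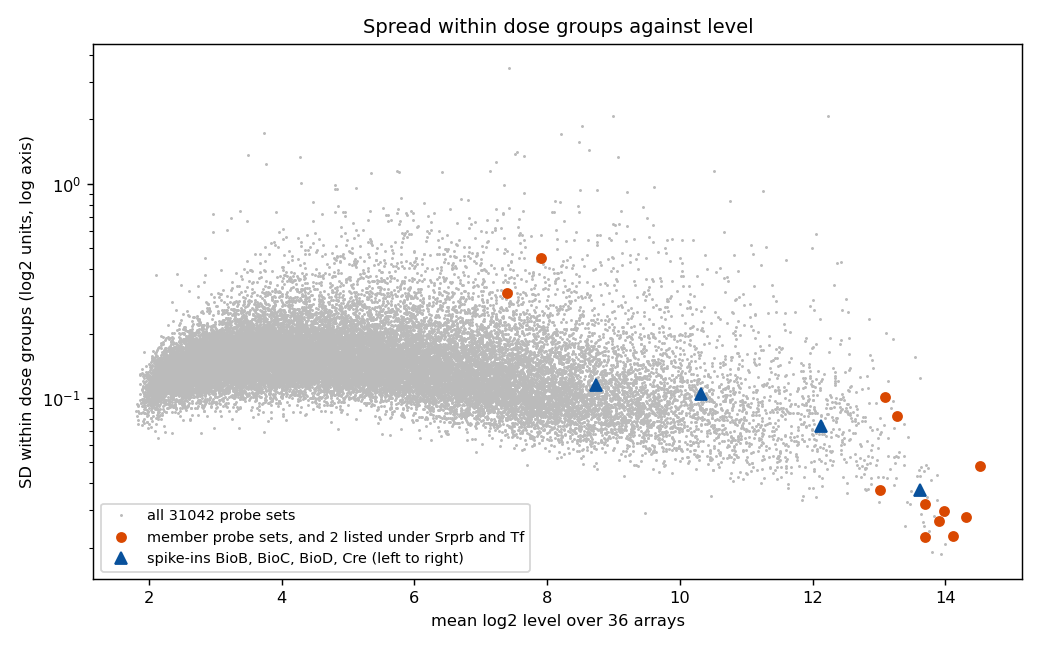
Spread of each probe set within dose groups (SD in log2 units, log axis) against its mean log2 level over 36 arrays. Grey points are the 31042 tested probe sets, orange points the 10 member probe sets and the 2 listed under Srprb and Tf, and blue triangles the spike-ins BioB, BioC, BioD and Cre from left to right. Each triangle is the average of the probe sets of that spike-in. All but 2 orange points lie at means of 13 or more, and most of these lie near the lower edge of the cloud at an SD under 0.05.

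Of the 9 members, 6 had an entry in the promoter table used here, from RefSeq with assembly GRCr8, each of 300 bases (250 before and 50 after the start of the gene). Those of the 2 genes whose arrays at 641 mg/kg all lay below vehicle, Serpina1 and Rbp4, are shown with that of Alb, the top of the scale, on the strand of the gene and 5′ to 3′. Capitals mark matches on either strand to the HNF1 half-site GTTAAT, the C/EBP site TTGCNNAA, the HNF4 site CAAAGTCCA or the TATA box TATAAA, and no matches overlap. Serpina1 lies at chr6:128653076-128653375, Rbp4 at chr1:245313502-245313801 and Alb at chr14:17906930-17907229, all 3 on the minus strand.
Serpina1: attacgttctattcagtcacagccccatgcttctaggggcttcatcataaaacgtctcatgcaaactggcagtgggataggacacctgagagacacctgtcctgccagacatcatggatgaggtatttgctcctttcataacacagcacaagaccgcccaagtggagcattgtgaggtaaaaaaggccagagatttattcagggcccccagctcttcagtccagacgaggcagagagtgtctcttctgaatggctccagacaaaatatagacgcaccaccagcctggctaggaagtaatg
Rbp4: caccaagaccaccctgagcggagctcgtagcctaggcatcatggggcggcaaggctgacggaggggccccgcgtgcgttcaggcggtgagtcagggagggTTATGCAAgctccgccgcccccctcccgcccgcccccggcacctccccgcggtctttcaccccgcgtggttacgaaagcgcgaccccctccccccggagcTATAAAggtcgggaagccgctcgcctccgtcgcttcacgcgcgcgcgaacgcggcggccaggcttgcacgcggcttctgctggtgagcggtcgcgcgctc
Alb: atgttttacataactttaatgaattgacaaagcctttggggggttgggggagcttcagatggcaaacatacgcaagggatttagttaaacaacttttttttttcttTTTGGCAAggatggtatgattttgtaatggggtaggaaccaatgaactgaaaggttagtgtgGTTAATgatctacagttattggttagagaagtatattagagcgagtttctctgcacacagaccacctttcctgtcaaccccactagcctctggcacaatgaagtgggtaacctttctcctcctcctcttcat

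Rbp4 held a C/EBP match from -150 to -143, counted from the start of the gene, and a TATA match from -50 to -45. Alb held an HNF1 half-site from -82 to -77 and a C/EBP match from -144 to -137. Serpina1 held none of the 4 motifs in this window. Over the 6 members (with Tf, Ahsg and F2), 4 held the C/EBP site, 2 the HNF1 half-site, 2 the TATA box and 0 the HNF4 site. Of all 33469 promoters of this length, 10.6% held the C/EBP site, 7.45% the HNF1 half-site, 14.2% the TATA box and 0.391% the HNF4 site. Matches are a description of the letters and are no evidence of binding.

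The lowest values of these probe sets were not spread evenly over the arrays. Replicate 1 at 0.641 mg/kg was the lowest of all 36 arrays in 4 of the 10 member probe sets and in 13 of the 68 probe sets with a mean of at least 13. Replicate 2 at 641 mg/kg was also the lowest in 13 of the 68, and in 1 member probe set. The mean of the 68 was 13.466 on this array and 13.467 on replicate 1 at 0.641 mg/kg. Without replicate 1 at 0.641 mg/kg, the difference at that dose was -0.01 for Alb probe set 1 against -0.05 with it. For Serpina1 it was -0.02 against -0.03. Leaving out each of the 36 arrays in turn gave differences at 641 mg/kg of -0.11 to -0.09 for Serpina1 and -0.07 to -0.06 for Rbp4.

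The comparison of each dose with vehicle, the design's question, gave no call among the members. limma fitted all 36 arrays with group as the factor, and p-values were adjusted over 31042 probe sets with Benjamini-Hochberg. At the highest dose, 641 mg/kg, 0 of 10 member probe sets passed an adjusted p of 0.05, beside 1.65% of all tested probe sets. At an unadjusted p of 0.05, limma gave 3 of 10 there, beside 11.4% of all, and the exact permutation test of 6 against 6 arrays gave 4, also beside 11.4%. For 64.1 mg/kg, 0 of 10 passed in limma, beside 0.0419%. At an unadjusted limma p there were 0 of 10, beside 5.94%, and 1 passed the exact permutation test, beside 6.33%. At 0.06, 0.641 and 6.41 mg/kg no tested probe set was called, so the background was 0%. An unadjusted limma p of 0.05 was passed by 0 of 10 members at each of these doses, beside 4.17%, 4.76% and 4.13% of all. The exact permutation test, unadjusted, gave 0, 0 and 1 of 10 members at those doses, beside 4.37%, 4.64% and 4.60%.

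Differences were small in both directions. At 641 mg/kg they ran from -0.15 to 0.12, with 7 of 10 below 0 and a median of -0.02, against -0.01 over all probe sets. The range was -0.05 to 0.11 at 64.1 mg/kg, and at 6.41 mg/kg from -0.23 to 0.10. The 2 ends at 6.41 mg/kg were Apob probe set 2 and Apoa1. At 0.641 mg/kg the differences ran from -0.05 to 0.05, with 9 of 10 below 0 and a median of -0.02. The range at 0.06 mg/kg was -0.19 to 0.11. Below 0 were 3 of 10 at 0.06, 3 at 6.41 and 4 at 64.1 mg/kg, with medians of 0.006, 0.007 and 0.005. Serpina1 and Rbp4 at 641 mg/kg were the 2 member probe sets whose 6 arrays all lay below the 6 vehicle arrays, beside 0.654% of all probe sets, and none lay wholly above, beside 1.06%. Serpina1 alone did so at 64.1 mg/kg, beside 0.168%, and none lay wholly above, beside 0.184%. From 0.06 to 6.41 mg/kg no member probe set lay wholly below vehicle, beside 0.0966%, 0.0741% and 0.0999%, or wholly above, beside 0.0387%, 0.0773% and 0.0805%.

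**Figure D2:**
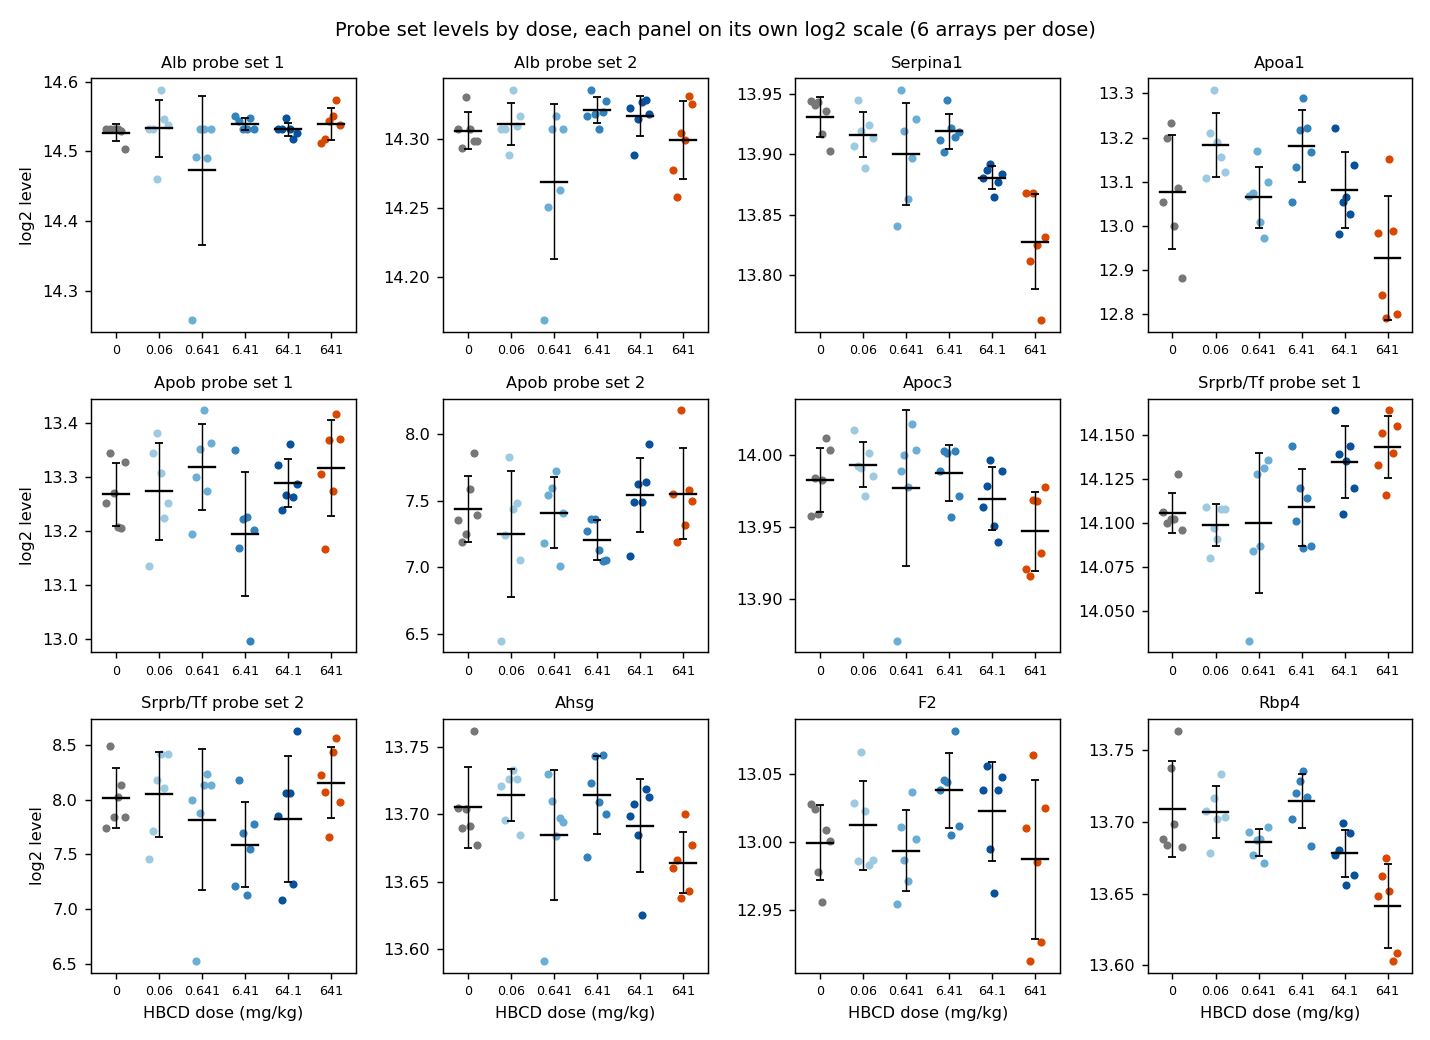
Log2 level of the 10 member probe sets and the 2 listed under Srprb and Tf on each array, by HBCD dose in mg/kg with vehicle as 0. Points are arrays, 6 per dose, and bars the mean and SD. Each panel has its own vertical range, so a panel spanning 0.2 units and one spanning 2 units look alike. Serpina1 and Rbp4 arrays at 641 mg/kg lie below all vehicle arrays, and 1 array at 0.641 mg/kg lies low in the Alb, Apoc3 and Ahsg panels.

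No difference of Alb from vehicle passed the test at any dose. Probe set 1 had a lowest, median and highest value of 14.512, 14.540 and 14.574 at 641 mg/kg, against 14.503, 14.532 and 14.532 in vehicle. The groups overlapped. The difference was 0.01 (1.01-fold, 95% interval 0.955 to 1.07), and limma's adjusted p was 0.951. Probe set 2 had 14.258, 14.301 and 14.331 at 641 mg/kg, against 14.293, 14.303 and 14.330 in vehicle, and the adjusted p in limma was 0.967. Over the 36 arrays the probe sets of Alb had a Pearson r of 0.859 (permutation p = 1e-05, the smallest that 100000 resamples can give) and a Spearman rho of 0.586 (p = 0.00023). Without the 2 farthest arrays, r was 0.673. Such correlations were computed for 3 pairs of probe sets, and the adjusted permutation p was 3e-05 for r and 0.00069 for rho. With 15 of 36 values of probe set 1 equal, these intervals and correlations describe a compressed range.

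Serpina1 encodes alpha-1 antitrypsin, the main plasma inhibitor of neutrophil elastase. Its lowest, median and highest values were 13.763, 13.828 and 13.868 at 641 mg/kg, against 13.903, 13.938 and 13.944 in vehicle. The 64.1 mg/kg arrays had 13.865, 13.882 and 13.892. Both groups lay wholly below vehicle, and they touched each other in a narrow range. The ranges at 0.06 (13.889 to 13.945), 0.641 (13.841 to 13.953) and 6.41 mg/kg (13.902 to 13.945) all overlapped vehicle. In order of their means, vehicle, 6.41, 0.06, 0.641, 64.1 and 641 mg/kg, each group overlapped its neighbour.

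The difference for Serpina1 at 641 mg/kg was -0.10, a 0.931-fold level (95% interval 0.890 to 0.975), with an adjusted p of 0.116 in limma and an exact permutation p of 0.002165, the smallest that 924 splits allow. The comparison of 64.1 mg/kg, which shares the vehicle arrays, gave -0.05 (0.966-fold, 0.923 to 1.01), with an adjusted p of 0.921 in limma and the same exact permutation p. The SD that limma used for this probe set was 0.0562, more than its own 0.0265, because it was drawn towards a prior SD of 0.132 shared by all probe sets. With a prior that follows the level, that SD was 0.0356 and limma's adjusted p at 641 mg/kg was 0.00265, a setting chosen after seeing the data. With robust moderation added to it, the adjusted p was 0.00552. With each gene counted once it was 0.0267, and with dim probe sets removed 0.00794. The call for Serpina1 thus depended on the variance model and on which probe sets were tested, with the same difference of -0.10 in each of these fits.

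Markers of macrophages and neutrophils lay below vehicle at 64.1 mg/kg beside Serpina1, with 0 called in either list. All 9 measured of 11 macrophage markers had a lower mean there, with a median difference of -0.46, 0 of 9 called by limma after adjustment, 9 of 9 at an unadjusted limma p of 0.05, beside 6.92% of all genes, and 7 of 9 in the exact permutation test, beside 7.39%. The mean level of the list ran from 7.57 to 8.54 on the 64.1 mg/kg arrays, against 8.46 to 8.82 in vehicle, with a small overlap. Among the 641 mg/kg arrays 8 of 9 were lower, with a median of -0.14, 0 called, 0 at an unadjusted limma p of 0.05 and 1 in the exact permutation test. All 4 neutrophil markers had a lower mean at 64.1 mg/kg, with a median of -0.28, 0 called by limma, 3 at an unadjusted limma p of 0.05 and 3 in the exact permutation test. Their list means, 3.53 to 3.74 on the 64.1 mg/kg arrays against 3.54 to 4.07 in vehicle, lay below the median of every array. The same direction held at the lower doses. At 0.06, 0.641 and 6.41 mg/kg all 9 macrophage markers were below vehicle, with medians of -0.14, -0.18 and -0.12. Of the 4 neutrophil markers 4, 3 and 3 were below, with medians of -0.23, -0.18 and -0.09. Limma called 0 of either list there. At an unadjusted limma p of 0.05 there were 0 macrophage markers at each dose. Neutrophil markers gave 1, 1 and 0, beside 3.81%, 4.67% and 3.62% of all genes. The part of either list in the Serpina1 levels was not tested.

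Rbp4 encodes the plasma carrier that brings retinol from the liver to other tissues. Its lowest, median and highest values were 13.603, 13.650 and 13.675 at 641 mg/kg, against 13.682, 13.693 and 13.763 in vehicle. The groups did not overlap, though the highest treated and the lowest vehicle array were close. The difference was -0.07 (0.955-fold, 95% interval 0.913 to 0.998), with an adjusted p of 0.401 in limma and an exact permutation p of 0.002165. Values of the 64.1 mg/kg arrays ran from 13.656 to 13.699 and overlapped vehicle, with a difference of -0.03 and an adjusted p of 0.963 in limma.

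Tf encodes the iron carrier of plasma, and its signal can be read here only through probe sets shared with Srprb. Srprb/Tf probe set 1 had lowest, median and highest values of 14.116, 14.146 and 14.164 at 641 mg/kg, against 14.096, 14.102 and 14.128 in vehicle. The groups overlapped in 14.116 to 14.128. The difference was 0.04 (1.03-fold, 0.982 to 1.07), with an adjusted p of 0.731 in limma and an exact permutation p of 0.00433. For 64.1 mg/kg it was 0.03, with an adjusted p of 0.967 in limma and an exact permutation p of 0.0173. Probe set 2 was variable, from 7.662 to 8.563 at 641 mg/kg against 7.743 to 8.489 in vehicle, and its difference of 0.14 had a 95% interval of -0.35 to 0.64. The pair had a Pearson r of 0.101 (permutation p = 0.56, adjusted 0.56) and a Spearman rho of 0.110 (p = 0.52, adjusted 0.52) over 36 arrays, with an r of 0.0755 without the 2 farthest.

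Apoa1 is the main protein of high density lipoprotein. Its lowest, median and highest values were 12.790, 12.913 and 13.152 at 641 mg/kg, against 12.882, 13.069 and 13.234 in vehicle. The medians of the 4 lower doses lay between 13.060 (at 64.1 mg/kg) and 13.192 (at 6.41 mg/kg). The 641 mg/kg group had the lowest median and overlapped vehicle widely. The difference was -0.15 (0.902-fold, 0.827 to 0.983), with an adjusted p of 0.293 in limma and an exact permutation p of 0.0931. Against 64.1 mg/kg, a comparison without the vehicle arrays, the difference was -0.15 (0.898-fold, 0.824 to 0.979), with an adjusted p of 0.424 in limma.

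Apoc3 encodes an apolipoprotein that slows the clearance of triglyceride-rich particles. Its lowest, median and highest values were 13.916, 13.950 and 13.978 at 641 mg/kg, against 13.958, 13.983 and 14.012 in vehicle. The groups overlapped, the difference was -0.04 (0.975-fold, 0.931 to 1.02), and limma's adjusted p was 0.768. Apob, the structural protein of very low density lipoprotein, gave 13.167, 13.337 and 13.417 in probe set 1 at 641 mg/kg, against 13.206, 13.261 and 13.344 in vehicle. These groups also overlapped, with a difference of 0.05 (1.03-fold, 0.961 to 1.12) and an adjusted p of 0.808 in limma. Apob probe set 2 had a difference of 0.12, with an interval of -0.22 to 0.45. The probe sets of Apob had a Pearson r of 0.479 (permutation p = 0.0037, adjusted 0.0056) and a Spearman rho of 0.446 (p = 0.0065, adjusted 0.0097) over 36 arrays, and r was 0.429 without the 2 farthest.

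Ahsg encodes fetuin-A, a plasma glycoprotein that limits calcification. Its lowest, median and highest values were 13.638, 13.663 and 13.700 at 641 mg/kg, against 13.677, 13.698 and 13.762 in vehicle. The groups overlapped, the difference was -0.04 (0.972-fold, 0.927 to 1.02), with an adjusted p of 0.724 in limma and an exact permutation p of 0.0130. F2, the precursor of thrombin, gave 12.912, 12.998 and 13.064 at 641 mg/kg, against 12.956, 13.005 and 13.028 in vehicle. Here the treated arrays spread to both sides of vehicle, with a difference of -0.01 (0.992-fold, 0.944 to 1.04) and an adjusted p of 0.946 in limma. At 6.41 mg/kg F2 was 0.04 above vehicle, with an adjusted p of 1 in limma and an exact permutation p of 0.0346.

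**Figure D3:**
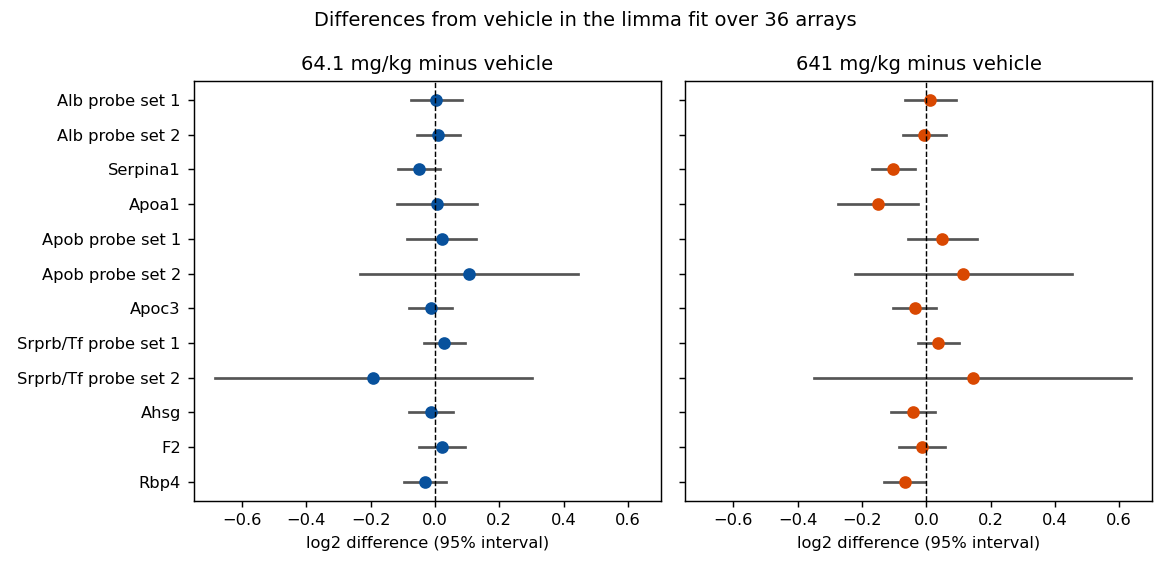
Log2 difference from vehicle at 64.1 mg/kg (left) and 641 mg/kg (right) for the 10 member probe sets and the 2 listed under Srprb and Tf, with 95% intervals from the limma fit over 36 arrays. Points left of the dashed line are lower than vehicle. At 641 mg/kg the intervals of Serpina1, Apoa1 and Rbp4 lie below 0, and the 2 dim probe sets have the widest intervals.

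No member was called in the tests over all groups. For the slope over the 6 dose ranks, 0 of 10 member probe sets were called by limma, beside 1.35% of all, and 3 had an unadjusted p under 0.05, beside 10.4%. In limma these were Serpina1, at -0.02 per dose step (adjusted p = 0.137), Apoa1, at -0.03 (0.276), and Rbp4, at -0.01 (0.446). For any difference among the doses, the limma F test called 0 of 10, beside 0.773%, with 2 at an unadjusted p under 0.05, beside 8.24%, namely Apoa1 (adjusted p = 0.149) and Serpina1 (0.558). Between 641 and 64.1 mg/kg, limma called 0 of 10, beside 0.242%, and Apoa1 was the 1 member probe set with an unadjusted p under 0.05, beside 9.15% of all.

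Calls among the bright probe sets are given with their levels. Of the 68 probe sets with a mean of at least 13, limma called 5 (7.35%) at 641 mg/kg, beside 1.65% of all tested. Their means were 13.14 to 13.61. Of the 21 at or above the mean of Rbp4 (13.69), which take in Alb, Apoc3, Serpina1 and Ahsg, limma called 0 at 641 mg/kg. It also called 0 of them at 64.1 mg/kg, beside 0.0419% of all tested. Among 21 probe sets, 0 calls is near both shares of all tested. Cyp2c6v1, a drug-metabolising cytochrome P450, was 1.20-fold higher (95% interval 1.13 to 1.27, adjusted p in limma 0.000107), and Cyp3a2, another P450, was 1.13-fold (1.07 to 1.19, adjusted p in limma 0.00824). Cyb5a, which passes electrons to P450 enzymes, was 1.14-fold (adjusted p in limma 0.00241), and Adh1c, an alcohol dehydrogenase, 1.24-fold (adjusted p in limma 0.0146). Rnase4, a secreted ribonuclease, was lower at 0.902-fold (0.851 to 0.955, adjusted p in limma 0.0494). Cyp2c6v1 was also called at 64.1 mg/kg, at 1.16-fold (adjusted p in limma 0.0292).

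The direction of the brightest probe sets and of the spike-ins is given beside the Serpina1 and Rbp4 values. Of the 68 probe sets with a mean of at least 13, 9 are member probe sets. Another 23 belong to other listed plasma protein genes, and 1 is a Srprb/Tf probe set. The 68 are therefore not independent of the set. Serpina1 and Rbp4 count among those wholly below vehicle at 641 mg/kg. At 641 mg/kg, 47 of the 68 probe sets with a mean of at least 13 were below vehicle, with a median difference of -0.02, 7 of 68 (10.3%) had all 6 arrays below all vehicle arrays, and 3 of 68 (4.41%) had all 6 above. At 64.1 mg/kg, 36 of 68 were below vehicle, with a median of -0.003, 2 of 68 (2.94%) wholly below and 3 (4.41%) wholly above. The Cre spike-in, which holds no rat RNA, averaged 13.595 ± 0.012 at 641 mg/kg and 13.630 ± 0.056 in vehicle (SD, n = 6 each), a difference of -0.035 with an exact permutation p of 0.160 (adjusted over 5 doses 0.401). At 64.1 mg/kg it averaged 13.580 ± 0.027, a difference of -0.05 (exact permutation p = 0.0714, adjusted 0.357). In both groups the Cre values overlapped vehicle, from 13.574 to 13.612 at 641 mg/kg and from 13.552 to 13.613 at 64.1 mg/kg, against 13.565 to 13.724 in vehicle. The dimmer spike-ins also averaged lower than vehicle in both groups. BioB stood at 8.673 at 64.1 mg/kg and 8.700 at 641 mg/kg, against 8.780 in vehicle. BioC stood at 10.248 and 10.289, against 10.368, and BioD at 12.068 and 12.096, against 12.158. The part of a shift common to bright probe sets, or to the spike-ins, in the Serpina1 and Rbp4 differences was not tested.

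The other plasma protein genes were read from 5 lists, in which 84 genes were measured, each by its brightest probe set. At 641 mg/kg, limma called 3 lower and 1 higher, which is 4.76% of the 84 beside 2.48% of all genes. The 5 lists had mean levels of 11.27 to 12.26. In the same fit limma called 306 of the 6044 probe sets with a mean of at least 7.40. It called 5 of the 68 (7.35%) with a mean of at least 13. The share of the 84 was thus not above that of the bright probe sets. The shares of all genes given below are not matched for level. Of the 84, 66 were below vehicle, with a median difference of -0.05 against -0.01 over all genes. At an unadjusted limma p of 0.05 there were 23 of 84, beside 13.8% of all genes, and in the exact permutation test 31 of 84, beside 14%. At the 4 lower doses limma called 0 of 84, beside 0.0703% of all genes at 64.1 mg/kg and 0 of all genes below it. From 0.06 to 64.1 mg/kg, 2, 3, 2 and 2 of 84 had an unadjusted limma p under 0.05, beside 3.81%, 4.67%, 3.62% and 6.92% of all genes. The exact permutation test gave 2, 5, 2 and 12 of 84, beside 4.43%, 4.91%, 4.43% and 7.39%.

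The called genes that were lower all belonged to the 16 measured of 17 listed apolipoproteins and lipoprotein assembly genes, where 11 were below vehicle and the median was -0.04. Apoa4, an apolipoprotein of triglyceride-rich particles, had 10.641, 10.917 and 11.176 at 641 mg/kg as lowest, median and highest, against 10.946, 11.342 and 11.567 in vehicle. The groups overlapped, and the level was 0.761-fold (0.654 to 0.885, adjusted p in limma 0.0487). Lcat, which esterifies cholesterol in high density lipoprotein, had 11.991, 12.072 and 12.124 at 641 mg/kg, against 12.184, 12.253 and 12.289 in vehicle. These groups did not overlap, and the level was 0.885-fold (0.830 to 0.944, adjusted p in limma 0.0369). Lipc, hepatic lipase, was 0.868-fold (0.804 to 0.936, adjusted p in limma 0.0381), with a small overlap between 11.591 and 11.665.

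Of the 17 measured of 19 protease inhibitors and fetuins, the list that holds relatives of Serpina1 and Ahsg, 15 were below vehicle at 641 mg/kg, with a median of -0.08, and limma called 1, which was higher. This was Serpina10, an inhibitor of activated coagulation factor X, with 11.513, 11.580 and 11.612 at 641 mg/kg against 11.364, 11.387 and 11.460 in vehicle. The groups did not overlap, and the level was 1.13-fold (1.06 to 1.20, adjusted p in limma 0.0225). Of the 16 measured of 22 coagulation and fibrinolysis genes, the group of F2, 13 were below vehicle, with a median of -0.06. In this list 7 had an unadjusted limma p under 0.05, beside 13.8% of all genes, and limma called 0. Serpind1, heparin cofactor II, came closest at 0.893-fold (0.837 to 0.953, adjusted p in limma 0.0599), and its 641 mg/kg arrays all lay below vehicle, with 12.331 as the highest against 12.404 as the lowest in vehicle.

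Of the 16 carriers and hormone binding proteins, the group of Rbp4 and Tf, 14 were below vehicle, with a median of -0.06. Limma called 0 of them, and 5 had an unadjusted p under 0.05, beside 13.8% of all genes. Igfbp1, a binding protein of insulin-like growth factors, had the smallest p, at 0.486-fold (0.302 to 0.783, adjusted p in limma 0.133), with 6.947 to 9.196 at 641 mg/kg against 8.491 to 9.822 in vehicle. Of 19 measured of 24 complement genes, 13 were below vehicle, with a median of -0.02. Here limma gave 0 calls and 0 at an unadjusted p under 0.05, beside the same 13.8%. The complement gene with the smallest p was C1s, at 0.928-fold (adjusted p in limma 0.512).

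**Figure D4:**
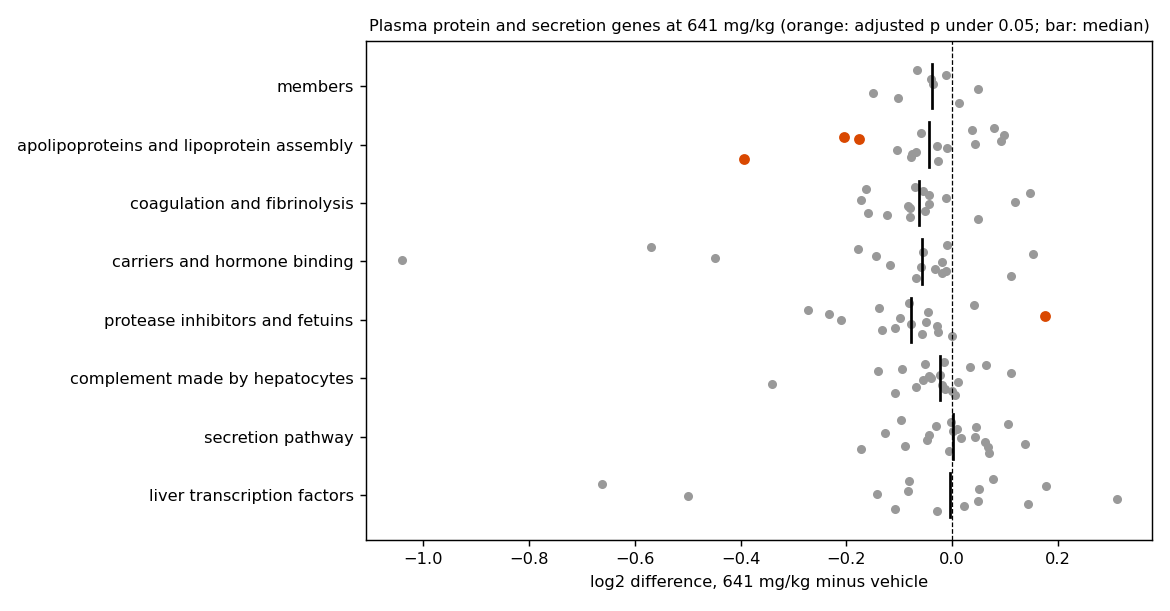
Log2 difference, 641 mg/kg minus vehicle, of the 8 members with a probe set of their own (the brighter one where a gene has 2) and of the other listed genes, 1 point per gene. Orange points had an adjusted p under 0.05 in limma, black bars are medians, and the dashed line marks no difference. The 4 orange points are Apoa4, Lipc and Lcat on the left and Serpina10 on the right, and the medians of the plasma protein lists lie left of the line.

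Genes of the route out of the cell and of liver gene control were read next. Of 19 measured of 23 secretion pathway genes, 10 were above and 9 below vehicle at 641 mg/kg. Limma called 0 of these, and 3 had an unadjusted p under 0.05, beside 13.8% of all genes. P4hb, a protein disulfide isomerase, had the smallest p, at 1.10-fold (1.03 to 1.17, adjusted p in limma 0.156). Of 14 measured of 16 liver transcription factors, 7 were above and 7 below vehicle, with 0 called by limma. Beside the same 13.8%, 1 of the 14 had an unadjusted limma p under 0.05. This was Foxa3, a liver forkhead factor, at 0.708-fold (0.503 to 0.995, adjusted p in limma 0.426).

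Neighbours on the chromosome were compared in the order of assembly GRCr8. Apoa1, Apoc3, Apoa4 and Apoa5 lie side by side on chromosome 8, and at 641 mg/kg they stood at 0.902-fold, 0.975-fold, 0.761-fold and 0.947-fold, of which limma called Apoa4. Serpina11, next to Serpina1 on chromosome 6, was 0.851-fold (0.776 to 0.932, adjusted p in limma 0.0577). Next to Ahsg on chromosome 11, Fetub, its paralogue, was 0.912-fold (0.861 to 0.966, adjusted p in limma 0.0974). Hrg, the histidine-rich glycoprotein, which lies on the other side of Fetub, was 1.09-fold (adjusted p in limma 0.261).

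For each member, the gene outside the set with the highest Pearson r over the 36 arrays is given as a description, with no test. The arrays share their dose groups and their normalization. For Apoa1 this was Pheta1 (r = 0.904), for Rbp4 Agxt (0.804), for Ahsg Spp2 (0.781) and for Serpina1 Arf5 (0.773). For Apob it was Usp34 (0.724), for Apoc3 Ppard (0.717), for Alb Slc12a3 (0.692) and for F2 Gldc (0.680). These partners had mean levels from 4.26 (Slc12a3), below the median of every array, to 12.88 (Spp2). Alb probe set 1, from which the r with Slc12a3 comes, had 15 equal values. For the mean of the 8 genes the highest were Pheta1 (0.772), Mfge8 (0.743), Srebf1 (0.740), Spp2 (0.730) and Apoa4 (0.703). Pheta1 was also the partner of Apoa1. Of the 8, Apoa1 and Apob probe set 1 had the widest spread within groups (SD 0.101 and 0.0828). The part of each gene in this mean was not tested.

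Hepatocyte enzymes that are not secreted were read as a check on the tissue. Their 9 measured of 12 genes had a mean level of 11.03 to 11.15 on the 641 mg/kg arrays, against 11.21 to 11.35 in vehicle. These ranges did not overlap, the median difference was -0.14, and 4 of 9 had an unadjusted limma p under 0.05, beside 13.8% of all genes. Ass1, an enzyme of the urea cycle, was the 1 called by limma, at 0.710-fold (0.637 to 0.790, adjusted p = 0.000107). Among the markers of other cells at 641 mg/kg, the 7 measured of 8 for endothelium were all below vehicle, with a median of -0.09, 0 called by limma, 2 at an unadjusted limma p of 0.05 and 3 in the exact permutation test. Their list mean ran from 8.31 to 8.45, against 8.41 to 8.57 in vehicle. The 4 neutrophil markers were also all below vehicle, with a median of -0.22 and 0 called by limma. Of the 4, 1 passed the unadjusted limma p and 1 the exact permutation test, beside the same shares of all genes. The 8 markers of stellate cells and fibroblasts had 4 above and 4 below vehicle, and the 4 measured of 5 for cholangiocytes had 3 above and 1 below, with 0 called in either list. Limma also called 0 of 3 measured B lymphocyte, 0 of 3 erythroid and 0 of 5 exocrine pancreas markers, with medians of -0.06, -0.11 and -0.02. Of 7 markers of T and NK lymphocytes limma called 1 lower, Cd8a, through 1 of its 3 probe sets, at 4.45 ± 0.25 at 641 mg/kg and 5.11 ± 0.33 in vehicle (SD, n = 6 each, adjusted p = 0.0176). These levels are near the array medians, and whether that probe set was above background was not assessed. The part of these markers in the plasma protein differences was not tested. The difference between 3-prime and 5-prime control probe sets, a sign of RNA quality, did not separate any dose from vehicle in exact permutation tests (adjusted p 0.930 to 0.976 over 10 tests).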

How the data were processed

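The authors deposited log2 levels per probe set, made with RMA and affy per the submitters' processing notes. The sources used here name no software version, setting or genome build. That the values are log2 was judged from their range, 1.53 to 14.59, with array medians of 4.83 to 4.90. They were used as deposited. Of 31099 probe sets, 57 controls were set aside. Platform gene symbols were updated with a table of assembly GRCr8 (20758 by gene ID, 2 by accession, 66 left as listed), and probe sets with several symbols (436) or none (9780) carry no gene name here. Detection and saturation flags were not used here, and precision is limited by the number of arrays. Each array was distinct, and within groups correlations across probe sets ran from 0.991 to 0.997.

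The design text names R/maanova at a false discovery rate of 5%. Here limma 3.58.1 in R 4.3.3 modelled the 6 groups over 36 arrays, with contrasts of each dose with vehicle, of 641 with 64.1 mg/kg, a linear slope over dose ranks and an F test over the 5 doses. Tests were two-sided, p-values were adjusted with Benjamini-Hochberg over 31042 probe sets per contrast, and a call is an adjusted p under 0.05. Intervals are 95% intervals from that fit, and every adjusted p that names no other test comes from it. Exact permutation tests compared 6 with 6 arrays for single probe sets (924 splits). The fit was also run on simulated data with changes larger than any member difference, so that run cannot show how it handles changes of the members' size. Correlations between probe sets used 100000 permutations. Promoter sequences and motif matches were read from a RefSeq table.

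The members, the gene lists and the tests were chosen with earlier results of these data known. Every member probe set is named. A member or listed gene with several probe sets is represented by the one with the highest mean, and of each list of plasma protein, secretion and transcription factor genes up to 3 called genes each way at 641 mg/kg are named, or the one with the smallest p. Of the marker lists, the called genes are named. Called probe sets with a mean of at least 13 and neighbouring genes were named after their values were seen. Replicate numbers recur across groups, but arrays of one number did not deviate together (mean correlation 0.0179, lowest -0.252, highest 0.321), so the model has no block. The alternatives tried were a block for the replicate number, centring on array medians, a second quantile normalization, removal of dim probe sets (below a group mean of 6 in every group), a variance trend with and without robust moderation, array weights, gene means, the 2 groups alone, all doses adjusted together, exact permutation, and leaving out each array.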

Additional observations from a re-analysis of the deposited data

Results flagged for a closer look

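In each dose group of 6 arrays, the highest and lowest values of the 12 probe sets were set against Dixon's 95% critical value. Of 72 groups, 9 had a value beyond it, where chance gives about 1 in 20 for independent, normally distributed values. The 12 probe sets share the same arrays, and 4 of 6 vehicle values of Alb probe set 1 were equal. The count of 9 therefore cannot be read against that rate. Of these 9, 3 came from replicate 1 at 0.641 mg/kg. It was the lowest of its group for Alb probe set 1, at 14.258 with 14.490 as the nearest value, for Apoc3, at 13.871 with 13.978, and for Ahsg, at 13.591 with 13.684. Replicate 2 of the same dose had 6.523 in Srprb/Tf probe set 2, with 7.880 as the nearest. Among the 64.1 mg/kg arrays, replicate 2 had 14.288 in Alb probe set 2, with 14.314 as the nearest, and replicate 4 had 13.625 in Ahsg, with 13.685. In vehicle, replicate 6 had 14.503 in Alb probe set 1, with 14.529 as the nearest, and replicate 5 was the highest in Srprb/Tf probe set 1, at 14.128 with 14.106, and in Ahsg, at 13.762 with 13.705.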

How the results depend on the processing

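No member was called in the fit described above, and the count of called members moved with the variance model and the probe sets tested. Serpina1 became the 1 called member at 641 mg/kg after removal of probe sets below a group mean of 6 (adjusted p 0.00794), with a variance trend and robust moderation (0.00552), with gene means (0.0267) and with a variance trend without robust moderation (0.00265), the last chosen after seeing the data. The shares of all features called in these 4 settings were 6.78%, 1.87%, 3.12% and 1.95%, against 1.65% in the fit described above. The slope over dose ranks gave 1 called member in the same 4 settings, again Serpina1 (0.00966, 0.00623, 0.0308 and 0.00318), beside 5.80%, 1.58%, 2.57% and 1.60% of all. The F test over doses gave 1 after that removal (Apoa1, 0.0424, beside 3.32% of all), 2 with the variance trend and robust moderation (Apoa1 and Serpina1, lowest 0.0383, beside 1.02%) and 2 without robust moderation (lowest 0.0233, beside 1.01%). Leaving out each array in turn gave 0 to 1 called members in the F test, the 1 being Apoa1 without replicate 4 at 641 mg/kg (0.0379), and 0 in the other contrasts. Unadjusted exact permutation gave 1 member at 6.41 mg/kg (F2), 1 at 64.1 mg/kg (Serpina1) and 4 at 641 mg/kg (Serpina1, Rbp4, Ahsg and Apoc3).

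With the replicate number as a block, Serpina1 at 641 mg/kg had an adjusted p of 0.159, and the block changed no call of a member. The arrays are not paired by these numbers, and 6 of 36 arrays were closest to an array of their own number. Serpina1 at 641 mg/kg was also not called with median centring (-0.09, adjusted p 0.252), repeated quantile normalization (-0.08, 0.270), array weights (0.0959), the 2 groups alone (0.423) or all doses adjusted together (0.404). Leaving out each array gave it -0.11 to -0.09 and an adjusted p of 0.109 to 0.242. Signs of uncalled differences turned in 35 of 824 comparisons across 11 other settings and in 56 of 3024 when an array was left out, none of them called and none for Serpina1, Rbp4 or Apoa1 at 641 mg/kg. The count of all called probe sets at 641 mg/kg was 511, against 763 of 11258 after removal of probe sets below a group mean of 6, 580 and 605 with a variance trend with and without robust moderation, 586 with array weights, 327 with the 2 groups alone, 225 with all doses adjusted together and 335 without replicate 2 at 641 mg/kg. At 64.1 mg/kg it was 13, against 28 after removal of probe sets below a group mean of 6, 24 with either variance trend, 20 with all doses adjusted together, 5 with the 2 groups alone and 8 without vehicle replicate 3 or 64.1 mg/kg replicate 4. How far the small range of values above a level of 13 limits the size of change that bright probe sets can show was not tested.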
